A study of Drosophila melanogaster with 3 samples.

Results

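The Polycomb group genes studied here are ph-p, ph-d, Pc, Psc, Su(z)2, Sce, E(z), esc, pho and Scm, 10 of the 13968 protein-coding genes in the annotation. They were described through the entries of Antp-eGFP ChIP-seq peak lists whose summit lay in the annotated span of the gene or within 1 kb of it, on the fly assembly dm6. The chromatin came from 1 group of 3 biological replicates of whole Drosophila melanogaster embryos of strain AntP-MiMIC-GFP, collected over 0 to 24 h with the sexes mixed. In this line an eGFP exon sits in an intron of Antp, so the homeodomain protein Antennapedia is made as a fusion with green fluorescent protein, and the pulldown used an antibody against GFP by the samples' description, while their antibody label names Antp. The description was followed here. The 3 replicates share this 1 fly line, every stage and cell type of the embryo is mixed in each, and control or untagged pulldowns were not analysed here. With no second group in the series, no test was made, and every value below is a description.

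Polycomb group proteins keep developmental genes, the Hox genes among them, silent in cells where those genes were off early in the embryo. Polycomb repressive complex 1 (PRC1) binds and compacts chromatin and can ubiquitylate histone H2A, while Polycomb repressive complex 2 (PRC2) methylates histone H3. DNA-binding proteins such as the one encoded by pho bring the complexes to Polycomb response elements.

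Each replicate list and the list on pooled reads held 30000 entries. The IDR list (irreproducible discovery rate, a measure of how alike replicates rank peaks) held 4351, the strongest of the pooled list. A single IDR summit thus need not be ranked alike by the 3 replicates. The members' spans plus 1 kb held 11 IDR summits, 35 pooled entries, and 40, 37 and 36 entries in replicates 1, 2 and 3. Of the 10 genes, 6 had an IDR summit, against 30.0% of all protein-coding genes: ph-p had 5, Psc had 2, and ph-d, Su(z)2, E(z) and esc had 1 each. Pc, Sce, Scm and pho had none.

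The sequences under 3 of the summits at the ph locus and under the 1 summit at esc are shown because the strongest and the second of these carried none of 9 motifs searched, while the others carried the ones in capitals. Each reads 5′ to 3′ on the minus strand of dm6, the coding strand of these genes, 100 bp to either side of the summit. In esc only the part outside its 5′ untranslated region is shown. Capitals mark the motif GAGAG where its complement CTCTC stands on this strand, the homeodomain core TAATTA, the Pho core GCCAT, and in esc the Combgap motif GTGTGT. The windows are the strongest ph-p summit at chrX:2137229-2137429, the ph-d summit at chrX:2123938-2124138, the ph-p summit farthest into its long intron at chrX:2134374-2134574, and the esc summit at chr2L:11829406-11829574.
ph-p strongest summit: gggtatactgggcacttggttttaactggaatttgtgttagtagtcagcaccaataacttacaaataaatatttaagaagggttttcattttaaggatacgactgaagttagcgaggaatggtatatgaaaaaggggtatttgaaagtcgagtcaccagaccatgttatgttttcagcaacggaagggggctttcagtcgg
ph-d summit: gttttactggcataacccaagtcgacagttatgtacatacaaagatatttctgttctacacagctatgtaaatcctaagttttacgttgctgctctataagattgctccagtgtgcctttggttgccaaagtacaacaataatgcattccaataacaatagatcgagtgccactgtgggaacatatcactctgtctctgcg
ph-p intron summit: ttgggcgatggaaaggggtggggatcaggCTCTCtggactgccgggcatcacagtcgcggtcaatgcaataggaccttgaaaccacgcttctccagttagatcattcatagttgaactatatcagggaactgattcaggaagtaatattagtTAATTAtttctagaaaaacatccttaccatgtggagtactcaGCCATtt
esc summit: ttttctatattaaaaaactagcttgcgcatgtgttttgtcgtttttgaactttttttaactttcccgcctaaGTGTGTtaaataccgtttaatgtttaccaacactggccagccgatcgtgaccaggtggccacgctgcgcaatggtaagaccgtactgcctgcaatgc

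PRC1 genes held 9 of the 11 IDR summits, on 4 of 6 genes, and the PRC2 genes E(z) and esc held 1 each. Long spans catch more summits, and the members' median span of 8360 bp exceeded the 2164.5 bp of all coding genes. Among the 7433 coding genes whose span lay in the members' range of 1599 to 14998 bp, 34.2% had an IDR summit. This range only sets bounds, and spans inside it were not matched to the members' median. A summit lay within 500 bp of an own transcription start site (TSS) in 4 of 10 members (ph-p, Psc, E(z) and esc), against 20.8% of coding genes. All 11 summits had a start site of the member itself as the nearest one, though for Su(z)2 it was 11170 bp away. By this rule 6 of 10 members were the nearest gene of an IDR summit, against 20.1% of coding genes. Of the 11 summits, 8 lay inside the span, those of ph-d and esc upstream of it, and that of Su(z)2 beyond the 3′ end. Counting only summits inside the span left 3 of 10 members (ph-p, Psc and E(z)), against 11.8% of coding genes.

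ph-p (FBgn0004861, X:2126210-2138371, minus strand, 12162 bp) had 5 IDR summits, which 0.644% of all coding genes and 0.135% of those with a span in the members' range reached or exceeded. The gene encodes Polyhomeotic proximal, a PRC1 subunit with a SAM domain, and has 3 annotated start sites. Its strongest summit, at 2137329, had a pooled peak signal (the authors' strength value for a peak) of 2408 and was rank 10 of 30000 in the pooled list. In replicates 1, 2 and 3 the signal there was 682, 891 and 860, at ranks 13, 8 and 10 of 30000. All 3 replicates thus placed this entry within their first 13. Its mean rank was 10.3 ± 2.52 (SD, n = 3), and 99.8% of IDR peaks had a lower signal. The peak spanned X:2137143-2137597, 455 bp, and its summit lay in a ph-p intron, 1042 bp downstream of the most distal start site and 474 bp upstream of the next.

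The other 4 ph-p summits were weaker by 6.43-fold or more on average over the replicates. The summit at 2137974 lay in the 5′ untranslated region of the distal transcript, 397 bp inside its start site, with a pooled signal of 365 and replicate signals of 99.6, 146 and 135. The summit at 2136586 lay 36 bp from the most proximal start site, with a pooled signal of 142 and replicate signals of 71.5, 32.6 and 43.1. It was the least even of the 5, at ranks 1422, 4919 and 3843, so that replicate 2 placed it outside its 4351 strongest entries. In the long intron, the summit at 2135343 had a pooled signal of 300.5 and replicate signals of 74.0, 135 and 90.5. The summit at 2134474, also intronic, had 171 in the pooled list and 61.4, 49.8 and 65.6 in the replicates. In each of the other 3 summits all replicates stayed within their 4351 strongest entries. The 5 summits ran over 3500 bp, with gaps of 869, 1243, 743 and 645 bp between neighbours in the order of the chromosome, and the strongest held 71.1% of their summed pooled signal of 3387. No IDR summit lay in the coding exons of ph-p.

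**Figure D1:**
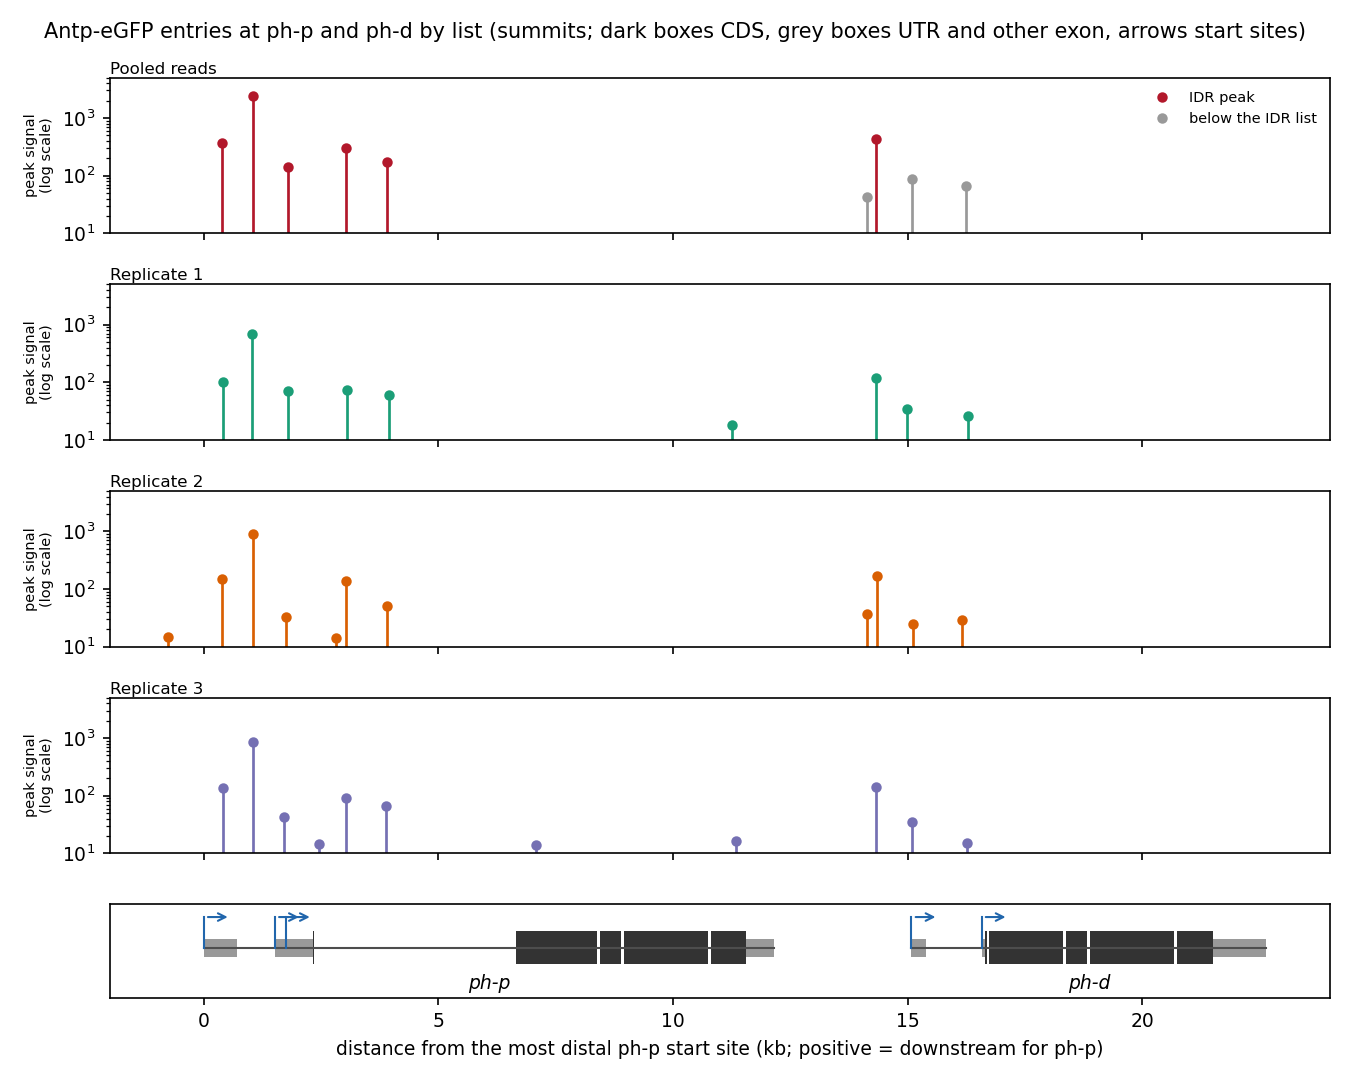
Entries at ph-p and ph-d in the pooled list and the 3 replicate lists, plotted by summit as distance from the most distal ph-p start site (kb, positive downstream) against peak signal on a log scale, with the gene models at the bottom. The tallest stem lies 1042 bp downstream of that start site in the pooled list and in replicates 2 and 3, and at 1027 bp in replicate 1, 5 ph-p summits and the 1 ph-d summit recur in all lists, and the coding exons hold no IDR peak.

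ph-d (FBgn0004860, X:2115727-2123286, minus strand, 7560 bp) had 1 IDR summit, at 2124038, between the genes. It encodes Polyhomeotic distal, the product of a tandem duplication with ph-p. The summit lay 752 bp upstream of the distal ph-d start site and 2172 bp beyond the 3′ end of ph-p, with a pooled signal of 431 at rank 465. Replicates 1, 2 and 3 gave signals of 121, 170 and 143 at ranks 547, 348 and 536, a mean rank of 477 ± 112 (SD, n = 3). No replicate placed it near the ranks of the strongest ph-p summit. Within each list the strongest ph-p signal exceeded that of ph-d 5.65-fold, 5.24-fold and 6.00-fold, a mean of 5.63 ± 0.382 (SD, n = 3). At the ph-d start site itself an entry at 2123271, 15 bp inside the transcript, stayed below the IDR list with a pooled signal of 86.1, where the lowest IDR signal was 103.

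Because the 2 ph genes are copies of each other, reads from shared sequence cannot be assigned to 1 of them with certainty. Alignment of the extended spans gave 4 stretches: 4480 bp at 92.0% identity over the coding part, 59 bp at 91.5%, 529 bp at 90.7% around the start of the middle ph-p transcript, and 387 bp at 70.5%. They cover 37.9% of the ph-p region and 56.2% of the ph-d region. None of the 5 ph-p summits lay in an aligned stretch. The strongest fell in a 208 bp piece of ph-p, X:2137265-2137472, between the last 2 stretches, where ph-d has 15 bp. Its 455 bp peak, however, reached into both of these stretches. The peaks of the summits at 2136586 and 2137974 also reached into an aligned stretch. At ph-d, the start site entry at 2123271, below the IDR list, lay in the stretch of 90.7% identity. The ph-d summit lay in the stretch of 70.5% identity, and its counterpart in ph-p was at 2137841, 133 bp from the ph-p summit at 2137974. Every 36-mer of the 11 member summit windows occurred once in the genome, so at the ph summits themselves a read of that length had 1 exact origin. Over the whole extended spans 72.4% of 36-mers were unique at ph-p and 73.6% at ph-d.

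Psc (FBgn0005624, 2R:12965997-12980994, minus strand, 14998 bp) and Su(z)2 (FBgn0265623, 2R:12996501-13007911, plus strand, 11411 bp) are divergently transcribed neighbours that encode related PRC1 RING finger proteins. The stronger Psc summit, at 12975562, was intronic, 5096 bp from the nearest Psc start site. It had a pooled signal of 445 at rank 432, and 122, 184 and 142 in replicates 1, 2 and 3, at ranks 535, 300 and 548. Its mean rank of 461 ± 140 (SD, n = 3) did not differ beyond the spread from that of the ph-d summit. The second Psc summit, at 12980883, lay 111 bp inside the distal transcript in its 5′ untranslated region and had a pooled signal of 116, near the lower end of the IDR list. Replicate signals there were 24.6, 50.5 and 40.5 at ranks 8263, 2728 and 4220, so replicate 1 placed it outside its 4351 strongest entries.

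The Su(z)2 summit lay 382 bp beyond the 3′ end of the gene, at 13008293, with no other gene within 1 kb. Its pooled signal was 179 at rank 2056, and replicates 1, 2 and 3 gave 47.5, 57.3 and 79.5 at ranks 2673, 2274 and 1554, a mean of 2167 ± 567 (SD, n = 3). The start sites of Su(z)2 had no IDR summit within 500 bp. The strongest pooled entry inside the span, at 12997790 in an intron, had a signal of 66.1, with a matching entry in replicates 2 and 3 alone. Below the IDR list stayed 6 of 8 pooled entries at Psc, 5 of 6 at Su(z)2, 3 of 4 at ph-d and 0 of 5 at ph-p, against 85.5% of all pooled entries. Weak entries of Psc beyond its 3′ end, 1 in replicate 1 and 1 in replicate 3 with signals of 14.2 and 19.3, were nearest the start site of CG13321.

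**Figure D2:**
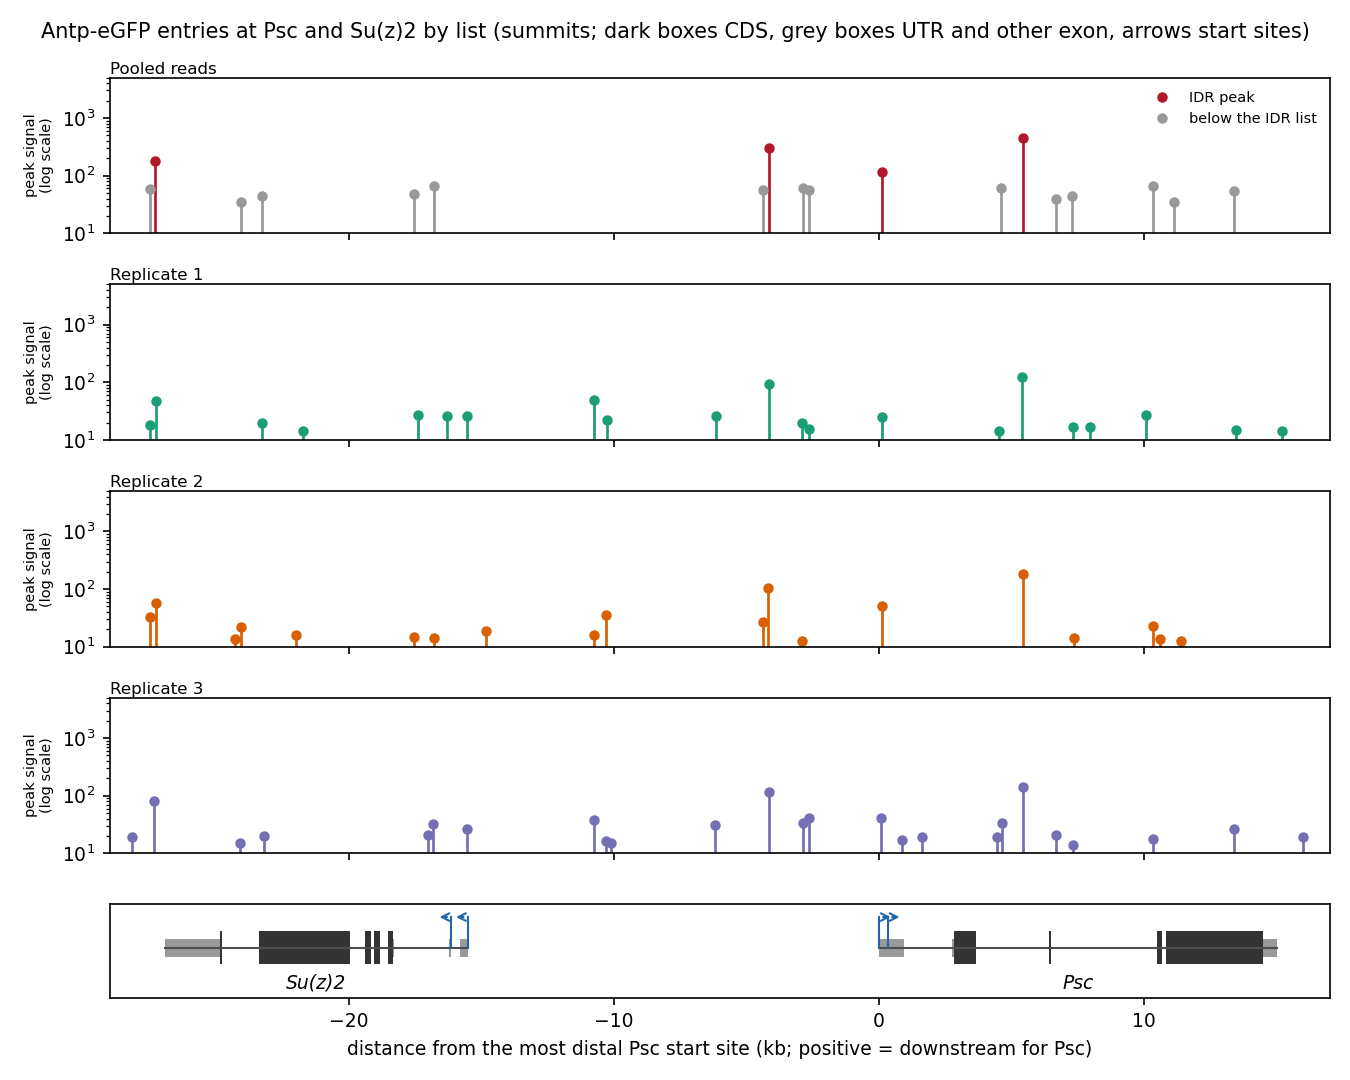
Entries at Psc and Su(z)2 in the pooled list and the 3 replicate lists, plotted by summit as distance from the most distal Psc start site (kb, positive downstream for Psc) against peak signal on a log scale, with the gene models at the bottom. The intronic Psc summit is the tallest in all lists, the Psc promoter summit and the summit beyond the 3′ end of Su(z)2 are lower, and a further IDR peak stands between the genes, 4158 bp from the Psc span and outside the 1 kb limit.

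E(z) (FBgn0000629, 3L:10634575-10638130, minus strand, 3556 bp) encodes the histone H3 methyltransferase of PRC2 and had its summit at 10638103, 27 bp inside the transcript. The peak spanned 3L:10638011-10638198, 188 bp. Its pooled signal was 226 at rank 1474. Replicate signals were 81.4, 65.4 and 81.2 at ranks 1173, 1869 and 1506, a mean of 1516 ± 348 (SD, n = 3), and all 3 kept it well inside their 4351 strongest entries. The summit lies inside the E(z) span, and the gene Cnep1r2 is also within 1 kb of it. A weak entry of replicate 2 beyond the 3′ end of E(z), with a signal of 14.9 at rank 19918, was nearest the start site of hay.

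esc (FBgn0000588, 2L:11827204-11829405, minus strand, 2202 bp) encodes a WD40 subunit of PRC2 and lies in an intron of Pde1c, a phosphodiesterase gene. Its summit at 11829474, 69 bp upstream of the esc start site, had a pooled signal of 136 at rank 3036. Replicates 1, 2 and 3 gave 35.1, 59.5 and 41.5 at ranks 4208, 2160 and 4088, a mean of 3485 ± 1149 (SD, n = 3). Replicates 1 and 3 thus held it just within their 4351 strongest entries. The summit also falls inside the Pde1c span, and the lists do not say which of the 2 genes it belongs to.

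The 4 members without an IDR summit were not alike. Pc (FBgn0003042, 3L:21306138-21318020, minus strand), which encodes the PRC1 subunit whose chromodomain binds methylated histone H3, had a pooled entry at 21318031, 11 bp upstream of its start site, with a signal of 60.9 at rank 9307. The strongest Pc entries of replicates 1, 2 and 3 ranked 7327, 8608 and 20355, but at different sites. They lay 4 bp upstream of the start site, in coding sequence and in an intron. The pooled entry upstream of the start site was matched at rank 22024 in replicate 2 and had no match in replicate 3. Sce (FBgn0003330, 3R:27680431-27682029, minus strand), the RING finger ubiquitin ligase of PRC1, had its strongest pooled entry at 27679644, with a signal of 82.7 at rank 5774. That entry lies beyond the 3′ end of Sce, in coding sequence of CG12883 and 353 bp from its start site. Scm (FBgn0003334, 3R:9633359-9637611, minus strand), whose product has MBT repeats and a SAM domain, had its strongest pooled entry in coding sequence at 9636969, with a signal of 73.7 at rank 6799. The strongest entries of Sce ranked 4578, 6618 and 11428 in the replicates and those of Scm 5045, 16577 and 6218, so no replicate placed any of these 3 genes among its 4351 strongest. Among the other pooled entries at these genes, 1 of Sce was again nearest CG12883, 1 of Pc was nearest CG7632, and 1 of Scm was nearest asRNA:CR45053. The replicate lists also held entries nearest these 3 neighbours, among them the strongest Scm entry of replicate 2 and the strongest Sce entry of every replicate.

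pho (FBgn0002521, 4:1172469-1181628, minus strand, 9160 bp), which encodes the zinc finger protein of the Pho repressive complex, was the only member with no entry in any list. The small chromosome 4 held 8 IDR peaks in all, 31 pooled entries, and 36, 103 and 70 entries in replicates 1, 2 and 3. The summit nearest to pho in the IDR and pooled lists was 59126 bp away, nearest Cals, with a signal of 407, while the nearest entry of replicate 2 was 5658 bp away, nearest CG33521. The nearest entries of replicates 1 and 3, at Cadps and Arf4, were 90765 and 48484 bp away. In the extended spans 89.8% of 36-mers at pho and 34.8% at Pc occurred once in the genome, against 100% at Psc, Sce, E(z), esc and Scm. The part of repeated sequence in the lack of peaks at pho and Pc was not tested.

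**Figure D3:**
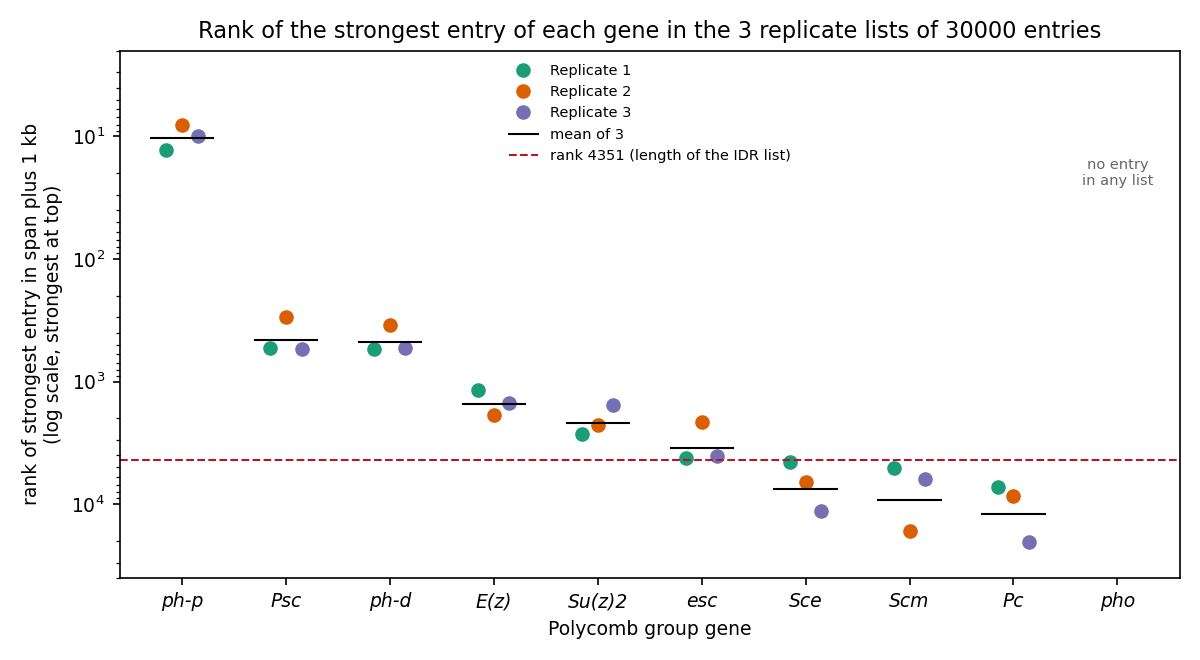
Rank of the strongest entry in the span plus 1 kb of each Polycomb group gene in the 3 replicate lists (log scale, strongest at the top), with the mean of the 3 as a bar and rank 4351 as a dashed line. The 6 genes with an IDR summit lie above the line in every replicate, Sce, Scm and Pc lie below it, and pho has no entry. For Sce, Scm and Pc the strongest entries of the replicates were not all at the same site.

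The order of the members by rank was ph-p, then Psc and ph-d, E(z), Su(z)2 and esc. The ranks of ph-p (8 to 13) did not overlap those of Psc (300 to 548), those of ph-d (348 to 547) did not overlap those of E(z) (1173 to 1869), and those of esc (2160 to 4208) did not overlap those of Sce (4578 to 11428). Psc and ph-d overlapped and changed places between replicates, as did Su(z)2 and esc. The ranges of E(z) and Su(z)2 also overlapped, though E(z) ranked ahead of Su(z)2 within each of the 3 replicates. Of 10 members, 6 had an entry among the 4351 strongest of every replicate, against 23.4% of coding genes, and 9 had some entry in every replicate list, against 61.6%. The first count is set in part by the IDR list, which was derived from the same replicates. So is the gap between esc, which has an IDR summit, and Sce, which has none. All 11 IDR summits had a replicate entry within 100 bp in all 3 replicates, and the offset between replicate summits ranged from 11 to 86 bp, with a median of 34 bp. The 9 that were among the strongest in all 3 left out the proximal ph-p summit and the Psc promoter summit. Of the 24 pooled entries of members below the IDR list, 2 had a match in all 3 replicates, 15 in 2, 5 in 1 and 2 in none. These matches were not counted over all IDR peaks or all pooled entries. IDR peaks are the strongest pooled entries of the same replicates, so the matches are not a result about the members.

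Taking the strongest pooled entry per gene, the 6 members with an IDR summit had a median IDR signal of 329, against 202 for the 4186 coding genes with one. As percentiles among all coding genes, ph-p stood at 99.9, Psc at 95.8, ph-d at 95.5, E(z) at 87.1, Su(z)2 at 82.9 and esc at 76.5. Sce stood at 64.1, Scm at 60.5 and Pc at 53.5, and pho shared the lowest place with the 25.0% of coding genes without an entry. The median of the 10 members was 79.7 in the pooled list and 74.9, 81.7 and 79.1 in replicates 1, 2 and 3, a mean of 78.6 ± 3.40 (SD, n = 3). Thus 9 of the 10 members stood between 53.5 and 99.9, and pho, without an entry, was the exception.

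**Figure D4:**
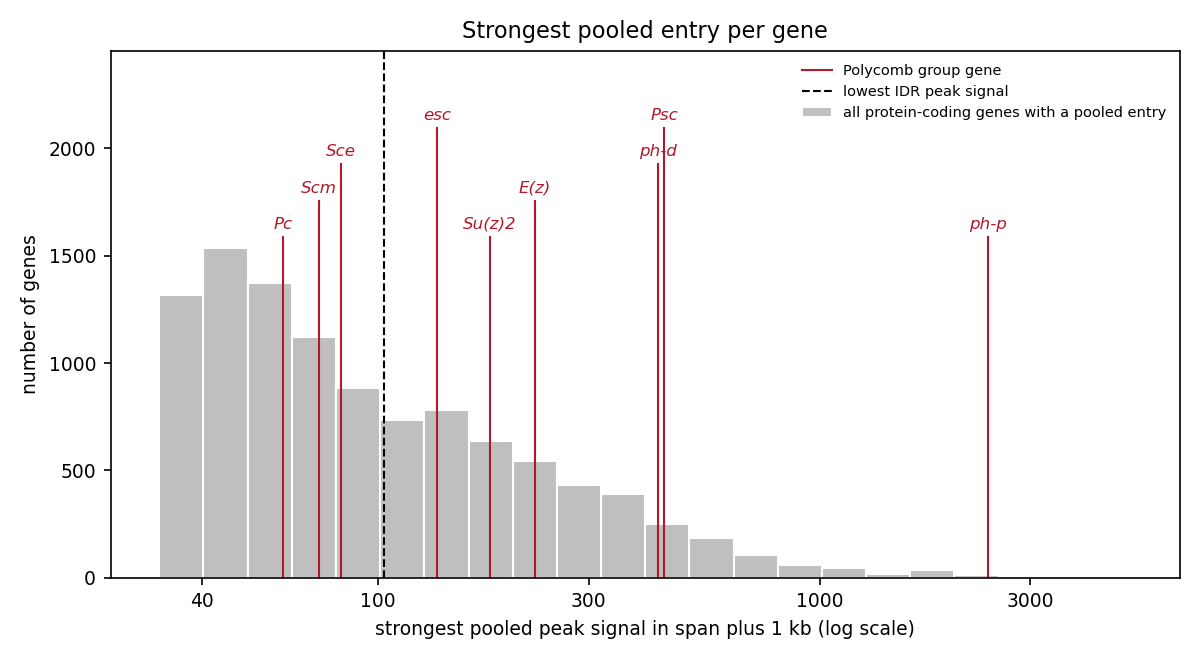
Strongest pooled peak signal in the span plus 1 kb (log scale) of each Polycomb group gene with an entry, as red lines, over the number of all protein-coding genes per signal bin, as grey bars, with the lowest IDR signal as a dashed line. ph-p stands at 2408 in the far tail, Psc and ph-d follow at 445 and 431, and Pc, Scm and Sce stand left of the dashed line.

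A wider list of 23 genes was described by the same rule. It held further PRC1 and PRC2 subunits, the Pho and PR-DUB complexes, and other Polycomb group genes or genes of factors that bind Polycomb response elements. Trl is among the last, so the list does not hold Polycomb group genes alone. Of these, 15 had an IDR summit, 12 had one within 500 bp of an own start site, and together they held 30 summits. Trl, which encodes GAGA factor, had the highest signal of the list, 1077 at rank 72, and 4 summits. Dsp1, a high mobility group protein gene, had a signal of 544, though the nearest start site was that of CG9921. lolal, a BTB protein gene, had 455 at a summit 20 bp from its start site, and Kdm2, a histone demethylase gene, had 4 summits with a strongest signal of 386. Their median percentile was 80.1 over all 23 genes. The trithorax group genes, whose products keep Hox genes on, had an IDR summit in 12 of 19 genes, one near an own start site in 8, and a median percentile of 81.3. The strongest was that of ash1 at 3921, a summit 97 bp from the start site of its neighbour CG14100. osa, a subunit gene of the BAP remodelling complex, had 1402 at a summit nearest lncRNA:CR46035, kis had 359 nearest lncRNA:CR44222, and fs(1)h had 350 nearest mys. Bound genes thus made up 6 of 10 members, 15 of 23 genes of the wider list and 12 of 19 trithorax genes, against 30.0% of coding genes. That share is not matched to the longer spans of these lists (medians of 8360, 7013 and 8331 bp, against 2164.5 bp). By the nearest start site the counts were 6 of 10, 14 of 23 and 7 of 19, against 20.1%.

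Short motifs near the summits of the members were counted within 100 bp to either side, on both strands, beside the share of all 4351 IDR summit windows of the same length. GAGAG, bound by GAGA factor and Pipsqueak, occurred in 4 of 11 member windows, against 25.1% of all. GCCAT, the core of the Pho site, occurred in 3 of 11, against 30.5%. GTGTGT, bound by Combgap, occurred in 2, against 13.8%, and TGAGTG, bound by Zeste, in 1, against 10.1%. The homeodomain core TAATTA occurred in 1 of 11, against 524 of all 4351, and CGATA, bound by BEAF-32 and contained in the DRE, in 1, against 33.2%. TATCGATA (the DRE), GGTCACAC (Ohler1) and the E-box CACGTG occurred in none, against 4.80%, 2.80% and 2.78%. A match is only the presence of these letters, and the shares were not tested against each other.

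The motifs were unevenly spread over the summits. The window of the strongest ph-p summit held none of the 9, nor did those of the ph-p summits at 2135343 and 2136586 or that of ph-d. The ph-p summit at 2134474 held the GAGA factor and Pho motifs and the single homeodomain core, and the one at 2137974 held those of Zeste, Combgap and BEAF-32. The Psc promoter window held 6 matches of GAGAG, where 3.61% of all IDR windows held 3 or more. Overlapping matches were each counted, so these need not be separate sites. The Psc promoter window was also the richest in G and C of the 11 at 58.2%, against a median of 38.3% for all IDR windows. The intronic Psc window held GAGAG and GCCAT once each, that of Su(z)2 held GCCAT, that of E(z) GAGAG and that of esc GTGTGT.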

How the data were processed

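Peak positions were measured by ChIP-seq in 3 replicates of 1 group. Per the descriptions deposited beside the files, the authors called each replicate's list, and the pooled list, against a control in dm6. The IDR list, checked here, equals the 4351 strongest pooled entries. For the aligner, the caller and the IDR cut-off, names and settings were not given in the sources used here. The signal deposited for each peak is the authors' strength value, used only within its own list. The authors' −log10 q-value, tied at its highest value in 3253 entries, served only as an alternative ranking, with ties ordered by signal. The dm3 lists were not used. The files hold no read totals, so depth is unknown.

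Gene spans and start sites came from Ensembl release 115 (transposable elements left out), and sequences from the RefSeq genome of the same assembly, read with Python 3.11.15, pandas 2.3.3 and numpy 2.4.6. Positions are 1-based. Replicate summits were matched within 100 bp and mean ranks taken over 3 replicates. Strong entries are the 4351 strongest of a list. Genes without an entry shared the lowest percentile. The ph genes were aligned with BLASTN 2.17.0, and the uniqueness of 36-mers was counted over both strands of the genome. All 10 members, every gene nearest to a member entry, and the 4 wider and 4 trithorax genes with the strongest IDR signal are named. Genes that describe where a summit lies were added after their values were seen. The listed symbol lid was read as Kdm5. The assignment of summits to genes and the search for the nearest start site were tested on simulated peaks. The motif counts, replicate matching and 36-mer counts were not. The members and lists were chosen with earlier results of these data known.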

Additional observations from a re-analysis of the deposited data

How the results depend on the processing

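The count of members with an IDR summit depended on the extension of the span. With no extension it was 3 of 10, the members with a strong entry in every replicate were also 3, and the wider Polycomb list had 8 bound genes; the ph-d, Su(z)2 and esc summits lie outside their genes. With only the stronger 2175 IDR peaks, the summits at members were 7 and the members with one near a start site 2. The median percentile was 73.3 with 5 kb and 74.9 in replicate 1 alone. Among the summary results the other 37 comparisons stayed within 1.5 times, or 1 SD, of the value reported. That limit is wide. Members with a strong entry in every replicate were 4 with the strongest 2175 entries and 9 with all entries, against 6. The wider list had 21 bound genes with 5 kb, against 15. The ranking by q-value ordered its ties by signal, so it could hardly differ from the ranking by signal. With each replicate left out in turn, 6 members and 14 genes of the wider list had a strong entry in every remaining replicate. No IDR list was rebuilt without a replicate, so these counts do not show how the IDR counts depend on single replicates. For mean ranks these settings could not show robustness. Leaving out 1 of 3 ranks cannot move their mean by 1 SD of the same 3 ranks. Other match distances returned the same closest entries, and no esc value could be had at 50 bp, since the summit of replicate 3 is 70 bp away. Motif counts moved with the window: with 50 bp to either side GAGAG occurred in 1 of 11 windows and GCCAT in 0, and with 250 bp in 8 and 7. Signals of the pooled list and of a replicate are on different scales. No paired analysis was possible because there is 1 group. Depth is unknown, so whether the weak entries at Pc, Sce and Scm would pass in deeper data was not tested.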

Other observations

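IDR summits just outside the 1 kb limit lay near 2 members. A strong one at 3L:21304605, with a signal of 752 at rank 149, stood 1533 bp beyond the 3′ end of Pc and 53 bp from the start site of CG11309, so Pc would count as bound with spans extended by 5 kb. Another, with a signal of 305 at rank 927, stood 4158 bp upstream of Psc and 215 bp from lncRNA:CR44339. A summit with a signal of 145 at rank 2791 had Su(z)2 as its nearest gene, 18613 bp from its start site and 7825 bp beyond its span.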
